A study of Mus musculus with 12 samples.

Results

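The genes described here encode surface and secreted molecules through which a tumour cell inhibits or engages T cells, natural killer (NK) cells and macrophages. They were chosen by name for that role, 10 genes out of a table of 17718. Of the 10, 7 were measured, and all 7 passed the filter on low counts: Cd274, Pvr, Nectin2, Cd47, Cd276, Lgals9 and Lgals3. Nectin3, Cd200 and Nt5e were not analysed here. The values come from bulk RNA-seq of cultured CT26 cells, a mouse colon tumour line, grown in RPMI-1640 medium with serum. One group of 3 libraries has the genotype WT and received no treatment, and the other group of 3 libraries is labelled Mll3KO. Mll3, now called Kmt2c, encodes a histone H3 lysine methyltransferase that acts mainly at enhancers. The labels do not say whether the knock-out cells are a clone or a pool, nor which guide was used, and the knock-out libraries are named by their column headings sg1, sg2 and sg3. Those columns were taken as the knock-out because they are the remaining 3 of the table and sg is a usual short form of single guide RNA. Whether libraries of 1 group were grown as separate cultures is not stated; the p-values reflect the spread among these libraries, which could be technical.

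Each of these molecules has a partner on an immune cell. PD-L1, the product of Cd274, binds PD-1 on T cells and dampens their activation, and it also binds CD80. The products of Pvr (CD155) and Nectin2 (CD112) are nectin-family adhesion molecules that engage the inhibitory receptor TIGIT and the activating receptor CD226, and CD155 also binds CD96. CD47 binds SIRPα on macrophages and dendritic cells and inhibits phagocytosis. Cd276 encodes B7-H3, a member of the B7 family like PD-L1, for which both inhibitory and stimulatory effects on T cells have been described. Lgals9 and Lgals3 encode galectins, secreted lectins that bind glycoproteins on T cells; TIM-3 is a described partner of galectin-9 and LAG-3 of galectin-3.

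The sequences just before the transcription start are shown for 4 of the genes: Cd274 and Nectin2 because they were lower in the knock-out, Cd276 because it was higher, and Lgals9 because it held a motif match. They are RefSeq sequences of build GRCm38.p6, written 5′ to 3′ on the strand of the gene and ending at the base before the start that the promoter table uses. For Cd274 the stretch is chr19:29367293-29367437 on the plus strand. That start lies inside the annotated span of the gene given below, so it is not the first base of that span, and the bases further upstream lie inside the span of Plgrkt. For Nectin2 it is chr7:19749574-19749823 on the minus strand. For Cd276 it is chr9:58555034-58555283 and for Lgals9 chr11:78984925-78985174, both on the minus strand. Capitals mark the match to a searched motif.
Cd274: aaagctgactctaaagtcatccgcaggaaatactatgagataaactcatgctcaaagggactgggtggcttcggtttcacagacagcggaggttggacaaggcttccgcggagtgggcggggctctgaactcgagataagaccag
Nectin2: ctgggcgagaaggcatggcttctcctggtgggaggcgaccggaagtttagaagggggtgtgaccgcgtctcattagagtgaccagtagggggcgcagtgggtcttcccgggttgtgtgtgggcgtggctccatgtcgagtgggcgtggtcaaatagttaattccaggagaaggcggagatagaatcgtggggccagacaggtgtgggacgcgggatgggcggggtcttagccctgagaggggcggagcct
Cd276: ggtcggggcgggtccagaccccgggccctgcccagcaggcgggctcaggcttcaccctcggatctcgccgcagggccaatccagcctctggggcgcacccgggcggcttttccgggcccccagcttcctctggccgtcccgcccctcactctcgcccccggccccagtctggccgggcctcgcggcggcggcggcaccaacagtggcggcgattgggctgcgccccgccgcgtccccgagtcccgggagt
Lgals9: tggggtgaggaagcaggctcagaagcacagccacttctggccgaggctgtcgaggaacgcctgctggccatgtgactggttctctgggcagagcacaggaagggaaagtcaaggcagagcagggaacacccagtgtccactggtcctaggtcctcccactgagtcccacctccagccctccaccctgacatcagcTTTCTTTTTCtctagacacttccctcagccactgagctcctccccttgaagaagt

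Of the 10 genes, 9 had an entry in the RefSeq promoter table. Their 250 bases upstream were searched on both strands for an interferon-stimulated response element (ISRE-like, GAAA repeated after a gap of 2 free bases), an interferon gamma-activated site (GAS-like, TTCNNNGAA), an AP-1 site (TGANTCA) and an E-box (CACGTG). Of the 9 windows, 1 held a match, the ISRE-like TTTCTTTTTC of Lgals9 between 55 and 46 bases before the start. Over all 32851 promoter entries of this length, 2.98% held the ISRE-like motif, 7.02% the GAS-like motif, 6.75% the AP-1 motif and 6.02% the E-box. These are letter matches, and a window without one says only that these letters are not in it. Bases G and C made up 50.4% of the window of Cd274, 73.2% of that of Cd47 and 77.6% of that of Cd276, where the median over all entries was 52.4%.

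The libraries held 9559658 to 13406013 counts. Levels are given in CPM, counts normalised to library size with TMM factors, and 1 count corresponds to 0.0786 to 0.108 CPM. Kmt2c, the targeted gene, stood at 24.9, 26.2 and 25.0 CPM in wild-type libraries 1, 2 and 3 and at 15.96, 11.2 and 14.8 CPM in sg1, sg2 and sg3 (log2 fold change -0.87, edgeR adjusted p = 4.33e-08). Of 7 T and NK cell markers 1 was measured, at 0 to 0.755 CPM in wild-type and 0.192 to 0.392 CPM in knock-out libraries. Ptprc, the pan-leukocyte gene, had at most 0.346 CPM in any library. The myeloid markers, which summed to 18.7 to 22.7 CPM in wild-type and 20.7 to 24.3 CPM in knock-out libraries, moved in opposite directions. Csf1r fell from 15.2 to 6.72 CPM on average, while Lyz2 stood at 0.553 and 8.80 CPM and Itgax at 0 and 1.67 CPM; both reached the filter in knock-out libraries alone. Of 11 epithelial markers 3 were tested, and Krt8 reached the filter in knock-out libraries alone (0.132 and 2.39 CPM). The other 2 rose, where 33.1% of all tested genes did: Krt18 from 38.8 to 111 CPM and Krt20 from 14.97 to 51.8 CPM. Vil1 was under the filter, with 0.102 to 0.471 CPM in wild-type and 0.0961 to 0.294 CPM in knock-out libraries. Epcam, Cdh1, Krt19, Cdx1, Cdx2, Cldn3 and Cldn4 were not analysed here. Of 5 tested fibroblast markers 4 rose, beside 33.1% of all tested genes. They were Col1a1 (2.98-fold), Dcn (2.19-fold), Pdgfra (2.04-fold) and Col1a2 (1.15-fold), while Pdgfrb (1.07-fold) was not called. The list summed to 1008 to 1025 CPM in wild-type and 1320 to 1359 CPM in knock-out libraries. Of 4 endothelial markers 1 was tested, Pecam1, with 0.540 CPM in wild-type and 2.19 CPM in knock-out libraries on average. Kdr and Tek were under the filter, with at most 0.539 and 0.323 CPM in any library, both in a wild-type library. Cdh5 was not analysed here. The part of these shifts in the results on the ligand genes was not tested.

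Most of the measured ligand genes were lower in the Mll3 knock-out. Pvr, Cd274, Nectin2, Cd47 and Lgals3 fell, Cd276 rose, and Lgals9 did not pass the test. All 7 reached the level of the filter in every library of both groups. A gene was called when its adjusted p was under 0.05 in edgeR's quasi-likelihood test over 13013 genes, and a negative log2 fold change means a lower level in the knock-out. Of the 7 genes 6 were called, beside 66.2% of all tested genes. The 5 that fell stand beside a share of 33.2% over all tested genes and the 1 that rose beside 33.1%. The groups of libraries did not overlap for 6 of the 7, as for 68.7% of all tested genes. Of all tested genes, 4301 were higher and 4320 lower with TMM, against 5587 and 3183 when scaled by the upper quartile and 5266 and 3440 by library size. Of the ligand genes, 2 of the 7 were called with a change of at least 2-fold, as were 15.1%. The median log2 fold change of the 7 was -0.74, beside 0.02 for all tested genes, and the median size of change regardless of sign was 0.81, beside 0.41.

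**Figure D1:**
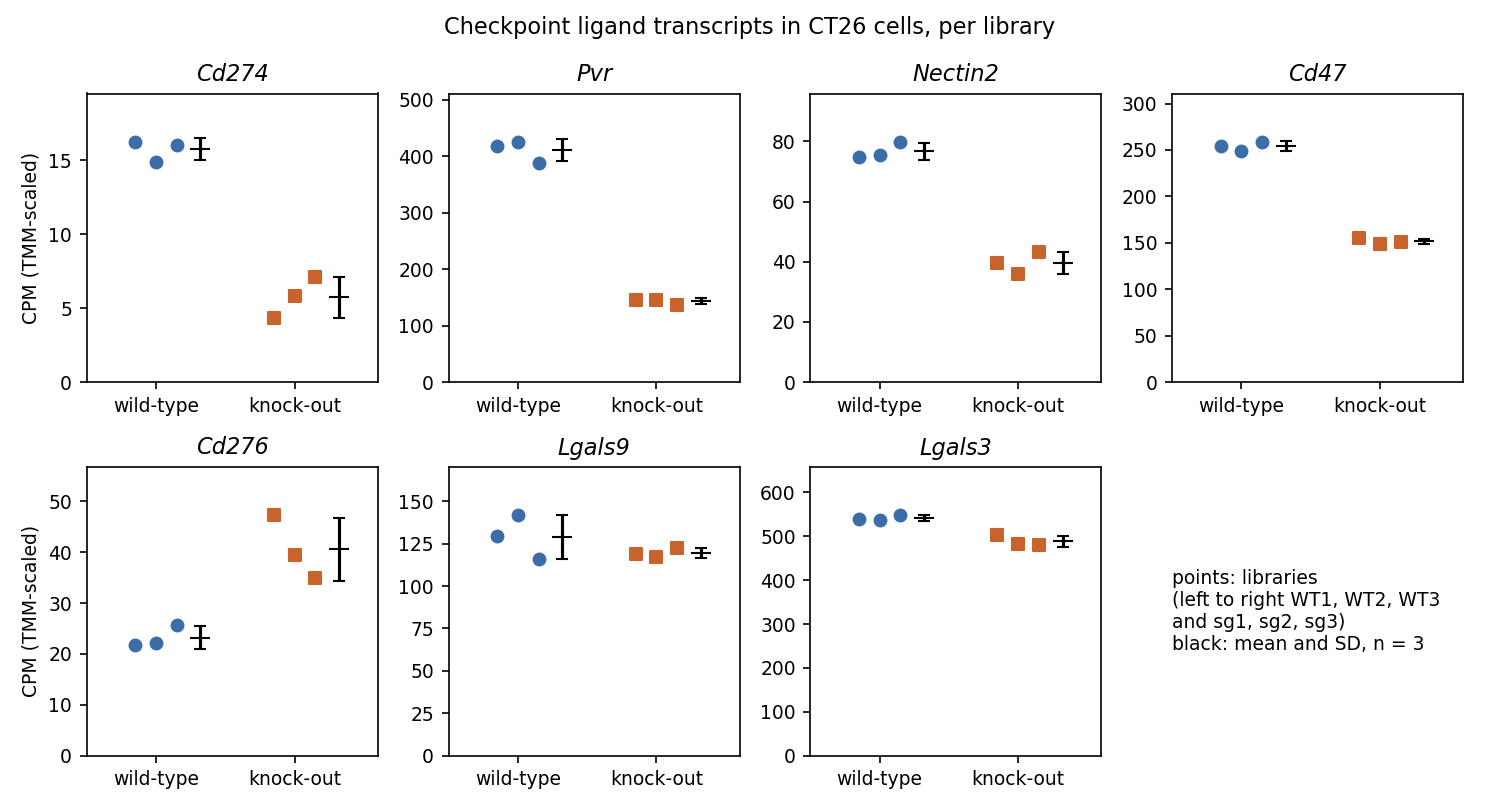
TMM-scaled CPM (vertical axis, from 0) of the 7 measured ligand genes in 3 wild-type (blue circles) and 3 knock-out libraries (orange squares), with the mean and SD in black. Cd274, Pvr, Nectin2 and Cd47 sit lower in every knock-out library, Cd276 sits higher in every one, and the groups overlap for Lgals9.

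Cd274 (ENSMUSG00000016496, chr19:29362107-29388095), the PD-L1 gene, had 16.3, 14.9 and 16.1 CPM in wild-type libraries 1, 2 and 3 and 4.31, 5.79 and 7.11 CPM in sg1, sg2 and sg3. Every knock-out library was below every wild-type library, and the knock-out libraries were spread more widely, with a coefficient of variation of 24.4% against 4.72%. These values rest on 146 to 207 counts per wild-type library and 44 to 74 per knock-out library. The transcript was lower by 2.74-fold in knock-out libraries (log2 fold change -1.45, 95% interval -1.80 to -1.10, edgeR adjusted p = 1.62e-10). A larger change, in either direction, was seen for 7.12% of the tested genes. In bulk RNA, fewer cells that express a gene and less RNA of it per cell cannot be told apart.

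Pvr (ENSMUSG00000040511, chr7:19903578-19921143), which encodes the TIGIT ligand CD155, had 418, 426 and 388 CPM in the wild-type libraries. It had 146, 146 and 137 CPM in sg1, sg2 and sg3, so the groups were far apart and each was tight. The fall was 2.87-fold (log2 fold change -1.52, 95% interval -1.61 to -1.44, edgeR adjusted p = 1.84e-36). Nectin2 (ENSMUSG00000062300, chr7:19716644-19749573), the gene of the second nectin-family ligand CD112, had 74.7, 75.4 and 79.9 CPM in wild-type and 39.5, 36.0 and 43.2 CPM in sg1, sg2 and sg3. Its groups did not overlap either. It was 1.94-fold lower (log2 fold change -0.95, 95% interval -1.11 to -0.80, edgeR adjusted p = 8.87e-17), and its interval lies wholly above that of Pvr. The starts of Pvr and Nectin2 are 187 kb apart on chromosome 7.

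Cd47 (ENSMUSG00000055447, chr16:49851328-49912503), which encodes the ligand that inhibits phagocytosis, had 255, 249 and 259 CPM in wild-type and 155, 149 and 151 CPM in sg1, sg2 and sg3. The coefficient of variation was 2.00% among wild-type and 1.95% among knock-out libraries, and the groups did not overlap. The transcript was 1.68-fold lower (log2 fold change -0.74, 95% interval -0.83 to -0.66, edgeR adjusted p = 5.87e-22). A larger change in either direction was seen for 25.2% of the tested genes.

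Cd276 (ENSMUSG00000035914, chr9:58524300-58555033), the B7-H3 gene, moved the other way. It had 21.7, 22.1 and 25.8 CPM in wild-type and 47.3, 39.3 and 34.98 CPM in sg1, sg2 and sg3. All 3 knock-out libraries were higher than all wild-type libraries, with sg1 the highest. The rise was 1.75-fold (log2 fold change 0.81, 95% interval 0.60 to 1.02, edgeR adjusted p = 1.07e-09), and without sg1 it was 0.68 on the log2 scale.

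Lgals3 and Lgals9, the galectins among the ligand genes, differed little between the genotypes. Lgals3 (ENSMUSG00000050335, chr14:47373860-47386167) had 539, 537 and 548 CPM in wild-type and 502, 483 and 480 CPM in sg1, sg2 and sg3. The groups did not overlap, but the fall was 1.11-fold (log2 fold change -0.15, 95% interval -0.22 to -0.08, edgeR adjusted p = 0.000246). Upper-quartile scaling and library size alone shift the median of all tested genes by 0.16 and 0.12 against TMM, and under them Lgals3 was at 0.0081 and -0.03 and not called. With the median of its chromosome removed it was at -0.50. Lgals9 (ENSMUSG00000001123, chr11:78962979-78984924) had 129, 142 and 116 CPM in wild-type and 119, 117 and 122 CPM in sg1, sg2 and sg3, and the groups overlapped. Its log2 fold change was -0.11 (95% interval -0.22 to 0.00044, edgeR adjusted p = 0.0739). Without wild-type library 3, the lowest of its group, it was -0.19 (edgeR adjusted p = 0.000743). The adjusted p was also under the threshold with no filter (0.0364) and with chromosome medians removed (0.00727), and over all alternatives it ran from 0.000743 to 1.

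**Figure D2:**
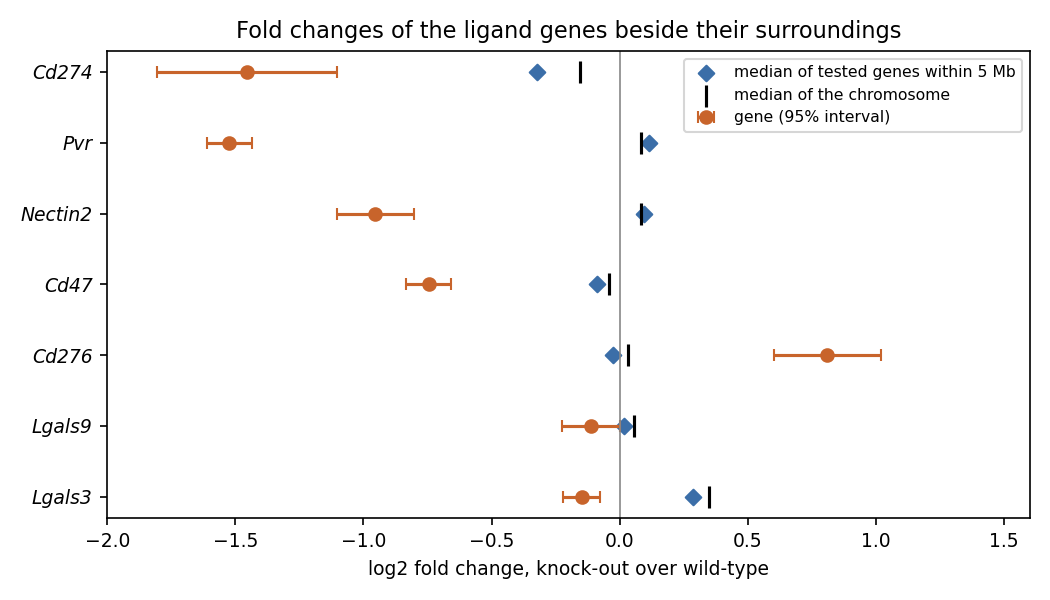
Log2 fold change, knock-out over wild-type (horizontal axis), of each ligand gene with its 95% interval (orange), beside the median of the tested genes within 5 Mb (blue diamonds) and of the whole chromosome (black bars). Cd274, Pvr, Nectin2, Cd47 and Cd276 lie away from both medians. The surroundings of Cd274 are themselves below 0 (-0.32), and those of Lgals3 are above 0 (0.29).

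The values of the surrounding genes are given beside each ligand gene; their part in the results was not tested. Around Cd274, the 36 other tested genes within 5 Mb had a median log2 fold change of -0.32, with 20 lower and 7 higher, and 4 of the 36 had a lower value than Cd274. A 1 Mb window, chosen after the values were seen, held 14 tested genes, of which 10 were lower and 0 higher. Of all tested genes, 33.2% were lower and 33.1% higher. At higher coordinates Ric1, which starts 160 kb away, fell from 88.7 ± 1.92 to 28.9 ± 1.72 CPM (mean ± SD, n = 3 per group; log2 fold change -1.61), and Ermp1, a peptidase gene, had -0.93. At lower coordinates Jak2, a kinase of the interferon gamma receptor, fell by 0.29 on the log2 scale. Plgrkt shares 5186 annotated bases with Cd274 and had 19.8 ± 1.29 CPM among wild-type and 20.2 ± 2.74 CPM among knock-out libraries (SD, n = 3 per group; edgeR adjusted p = 0.898). With the median of chromosome 19 removed, Cd274 was at -1.30.

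Pvr lay below every tested gene around it. The 83 tested genes within 5 Mb had a median of 0.11, and 0 of the 83 had a lower value. Of the 83, 28 were higher and 27 lower, beside 33.1% and 33.2% of all tested genes. Nectin2 is the tested gene nearest to it at lower coordinates. Beyond Nectin2, Tomm40, a mitochondrial import receptor gene, fell by 0.33, the apolipoprotein gene Apoe by 0.99 and Clptm1 by 0.39 on the log2 scale. With the median of chromosome 7 removed, Pvr was at -1.61 and Nectin2 at -1.04.

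Cd47, Cd276 and Lgals9 had surroundings near 0, and those of Lgals3 were higher. Cd47 had 19 tested neighbours within 5 Mb with a median of -0.09, and 2 of them had a lower value. Cd276 had 76 with a median of -0.03, and 8 of them had a higher value. Lgals9 had 108 with a median of 0.02. Lgals3 had 59 with a median of 0.29, of which 31 were higher and 8 lower, beside 33.1% and 33.2% of all tested genes.

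**Figure D3:**
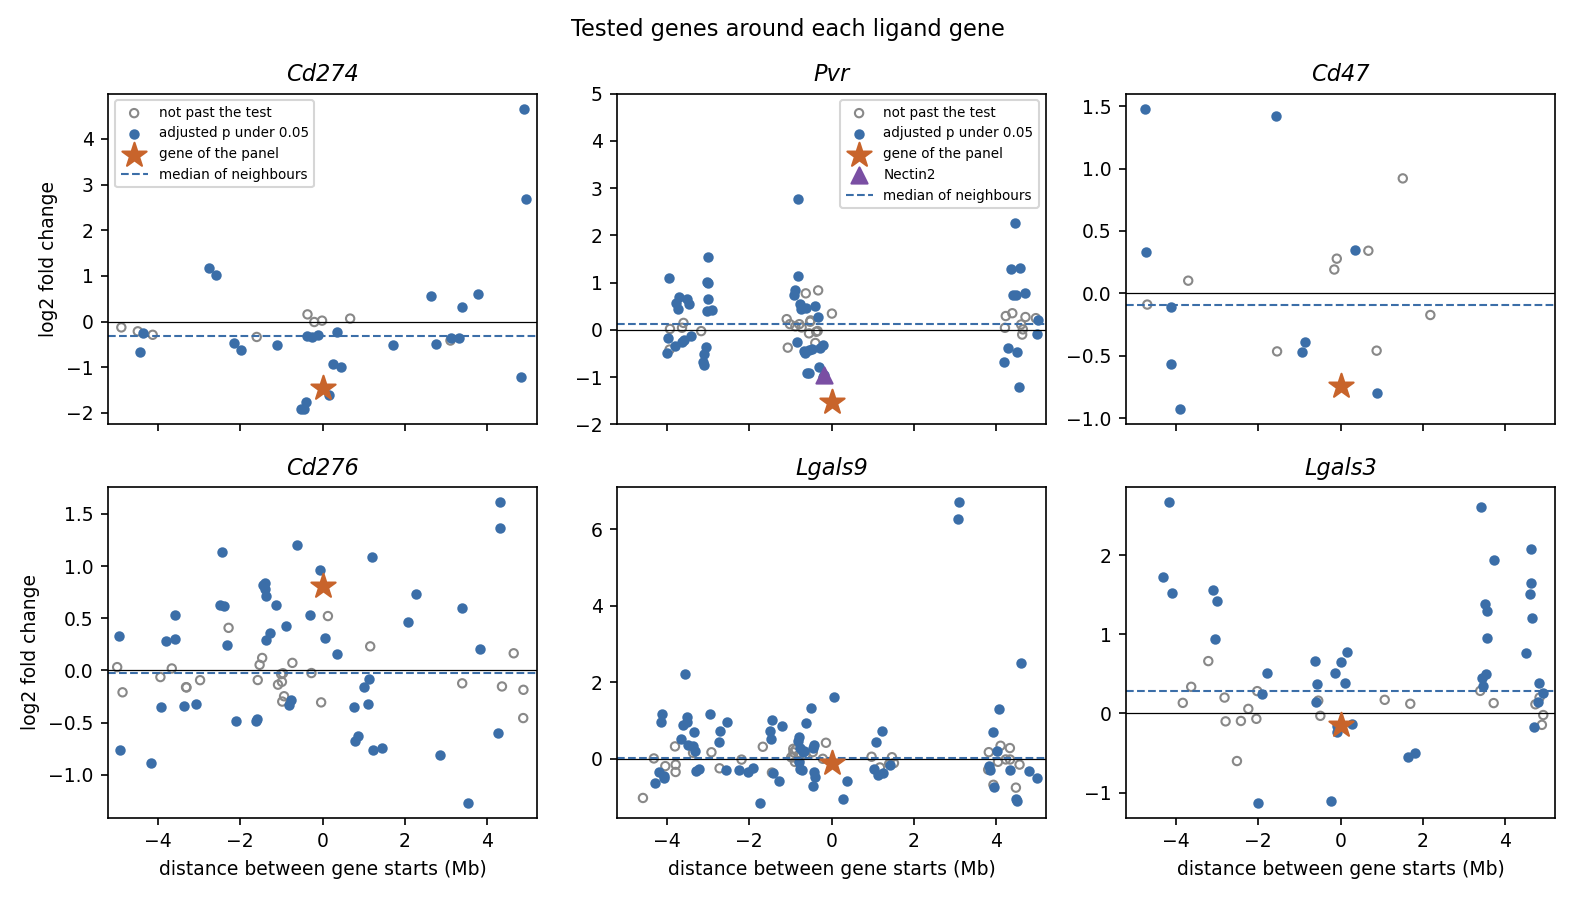
Log2 fold change (vertical axis, scaled per panel) of the tested genes around 6 of the ligand genes against the distance between gene starts in Mb, with the gene of the panel as a star and the median of its neighbours dashed. Pvr lies below all 83 neighbours, with Nectin2 (triangle) beside it, whereas 4 of the 36 neighbours of Cd274 lie below Cd274.

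The partners of the ligands were next taken from a list of 15 receptors and binding partners. Of these, 2 passed the filter and both fell, where 33.2% of all tested genes did. Cd80, a B7 molecule that binds PD-L1 as well as CD28 and CTLA-4, had 76.5, 70.4 and 68.0 CPM in wild-type and 45.8, 51.4 and 47.7 CPM in sg1, sg2 and sg3 (log2 fold change -0.57, SE 0.0728, edgeR adjusted p = 8.31e-10). Counts assigned to Tigit, the receptor of CD155 and CD112 on T and NK cells, were 40.9, 40.4 and 41.5 CPM in wild-type and 18.1, 16.1 and 20.3 CPM in knock-out libraries (log2 fold change -1.17, SE 0.104, edgeR adjusted p = 5.45e-15). Tigit shares 8256 annotated bases with Zbtb20, which had 26.6 ± 2.92 and 15.2 ± 1.56 CPM (SD, n = 3 per group; log2 fold change -0.80). Whether the counting used strand is not stated, so the level of Tigit is uncertain, and of the T and NK cell markers only Cd4 was measured, at 0 to 0.755 CPM. Among the receptors under the filter, Havcr2 (TIM-3) had 0.816 to 1.73 CPM in wild-type and 0.196 to 0.692 CPM in knock-out libraries, and Lag3 had at most 0.970 CPM in any library. Pdcd1, Cd226, Cd96 and Sirpa were not analysed here.

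Among other checkpoint and costimulatory ligands more genes rose than fell. Of 31 listed, 11 were tested. Vsir reached the level of the filter, 0.986 CPM, in knock-out libraries alone, so it was tested only through that group and its direction follows from that. Leaving such genes out was chosen after the values were seen. Of the other 10, 6 rose and 1 fell, beside 33.1% and 33.2% of all tested genes, and their median log2 fold change was 0.49 (0.69 with Vsir). Tnfsf9, the costimulatory ligand 4-1BBL, had 4.56, 4.49 and 3.88 CPM in wild-type and 19.7, 20.8 and 22.2 CPM in sg1, sg2 and sg3, a 4.81-fold rise (edgeR adjusted p = 5.27e-18). Nectin1, a nectin that pairs with other nectins in cell adhesion, had 6.13, 4.18 and 4.53 CPM in wild-type and 11.1, 7.61 and 9.13 CPM in knock-out libraries (log2 fold change 0.88, SE 0.208). The genes that rose also included Vtcn1 (B7-H4), with 4.46 ± 0.349 and 8.08 ± 1.76 CPM, and H60b, a ligand of the NK receptor NKG2D, with 5.02 ± 1.09 and 12.5 ± 2.18 CPM (SD, n = 3 per group). Vsir, which encodes the inhibitory B7-like molecule VISTA, was at 0.226 ± 0.0750 CPM in wild-type and 1.97 ± 0.423 CPM in knock-out libraries. Vtcn1, H60b and Vsir were named after their values were seen. The remaining 2 that rose were Cadm1 and Ceacam1, and Ceacam1 was not called without sg2 (0.55, edgeR adjusted p = 0.114) or without sg3 (0.64, adjusted p = 0.0560). Cd80 was the gene that fell. Within the B7 family, Cd274 and Cd80 were thus lower and Cd276 and Vtcn1 higher in the same libraries. Pdcd1lg2, the PD-L2 gene, was not analysed here.

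Genes known to act on PD-L1 moved in both directions. Of 28 listed 27 were tested, 9 rose and 13 fell, where 33.1% and 33.2% of all tested genes did. With TMM scaling the share that rose is that of the background and the share that fell is above it. The median log2 fold change of the 27 was -0.16, or -0.0052 when scaled by the upper quartile and -0.04 when scaled by library size. Irf1, the interferon-induced factor that acts at the Cd274 promoter, had 26.5, 20.1 and 21.0 CPM in wild-type and 43.1, 41.8 and 47.5 CPM in knock-out libraries, a rise of 0.96 (SE 0.100). Cd274 and Irf1 thus differed in direction in the same libraries, and a link between them was not tested. Jun, an AP-1 subunit, fell from 129 ± 4.08 to 51.7 ± 4.13 CPM and Myc from 305 ± 6.70 to 168 ± 2.26 CPM (SD, n = 3 per group). Cmtm6, a membrane protein that protects PD-L1 from degradation, had 34.5, 29.5 and 35.6 CPM in wild-type and 22.7, 20.5 and 19.9 CPM in knock-out libraries (log2 fold change -0.66, SE 0.107, edgeR adjusted p = 2.97e-07).

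Of 5 listed genes that act on or with CD47, 4 were tested, 4 rose and 0 fell, beside 33.1% and 33.2% of all tested genes. Thbs1, thrombospondin-1, a secreted ligand of CD47, had 72.4, 75.0 and 77.8 CPM in wild-type and 308, 318 and 328 CPM in sg1, sg2 and sg3, a 4.24-fold rise. Calr (calreticulin), which at the cell surface promotes phagocytosis, rose 1.26-fold from 863 ± 37.3 to 1091 ± 14.6 CPM (SD, n = 3 per group). Qpctl, the enzyme that modifies the SIRPα-binding end of CD47, had 7.001 ± 0.733 and 10.3 ± 1.20 CPM (log2 fold change 0.55, edgeR adjusted p = 0.00689), and it was not called without sg2 (0.44, adjusted p = 0.0694). The fourth, Lrp1, the calreticulin receptor, had a log2 fold change of 0.22, which was -0.14 with chromosome medians removed (edgeR adjusted p = 0.00252).

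Among 10 other galectins and galectin-related genes, 7 were tested, 3 rose and 2 fell, with a median log2 fold change of 0.19. These counts are near the shares of all tested genes, 33.1% higher and 33.2% lower. Lgals8, the galectin-8 gene, fell from 116 ± 11.8 to 65.9 ± 3.19 CPM (log2 fold change -0.82), a larger fall than that of Lgals3 or Lgals9 in the same fit. Lgalsl, a galectin-like gene, rose from 49.6 ± 1.62 to 93.7 ± 5.57 CPM (log2 fold change 0.92; SD, n = 3 per group). Lgals1 was at -0.14, and it lost its call under scaling by library size (-0.016) and by the upper quartile (0.019).

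The enzymes and transporters that make, take up and clear adenosine were read without Nt5e, the CD73 gene, which makes adenosine from AMP outside the cell. Of 21 listed genes 6 were tested. Bst1, with 0.306 to 0.863 CPM in wild-type and 1.90 to 2.35 CPM in knock-out libraries, reached the filter in the latter alone. Of the other 5, 3 rose and 1 fell, beside 33.1% and 33.2% of all tested genes, with a median log2 fold change of 0.30 (0.60 with Bst1). Adk, the kinase that turns adenosine back into AMP inside the cell, had 60.9, 52.8 and 53.0 CPM in wild-type and 106, 112 and 113 CPM in sg1, sg2 and sg3 (log2 fold change 0.98, SE 0.0642). Adk lies on chromosome 14, whose median was 0.35. Entpd5, a nucleoside diphosphatase of the endoplasmic reticulum, fell from 19.5 ± 0.775 to 8.03 ± 0.386 CPM (log2 fold change -1.27). Entpd1 (CD39), the enzyme upstream of CD73, had at most 0.489 CPM in any library, and the adenosine receptor gene Adora2b had 0.108 to 0.510 CPM in wild-type and 0.783 to 1.35 CPM in knock-out libraries; both were under the filter and were not tested.

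**Figure D4:**
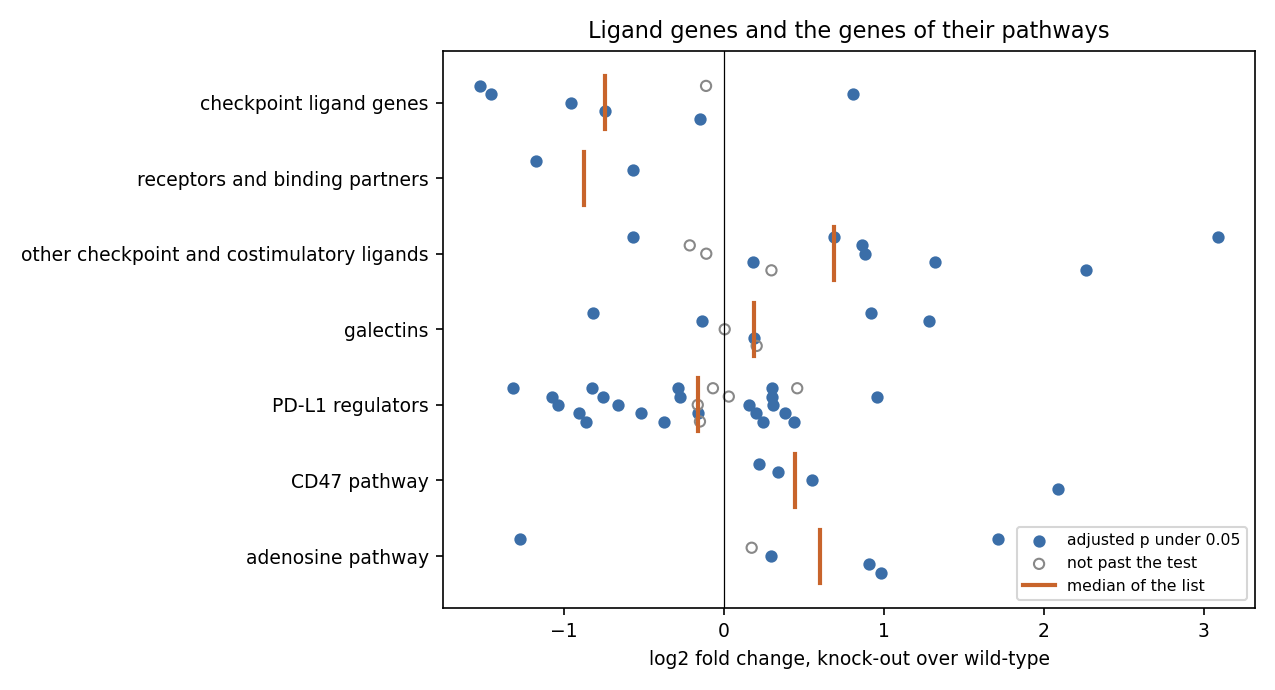
Log2 fold change, knock-out over wild-type (horizontal axis), of each tested gene of the 7 measured ligand genes and of 6 lists of related genes, filled where the adjusted p was under 0.05, with the median of each list in orange. The medians run from -0.87 for the 2 tested partners to 0.69 for the other ligands, with Vsir and Bst1 drawn and counted in their lists, and each list with more than 4 tested genes holds both higher and lower genes.

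The genes with the most similar pattern over the 6 libraries were found by Euclidean distance between log2 CPM values centred per gene, among 10495 genes with an average log2 CPM of at least 1. For Cd274 they were Zfp930 (distance 0.28, log2 fold change -1.33) and Proscos (0.30, -1.55). For Pvr they were Zzz3 (0.04, -1.53) and Map1b (0.10, -1.58), and for Cd47 Mdfic (0.05, -0.76) and Champ1 (0.05, -0.72). With 2 groups of libraries this measure mainly ranks genes by the size of the difference between genotypes.

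**Figure D5:**
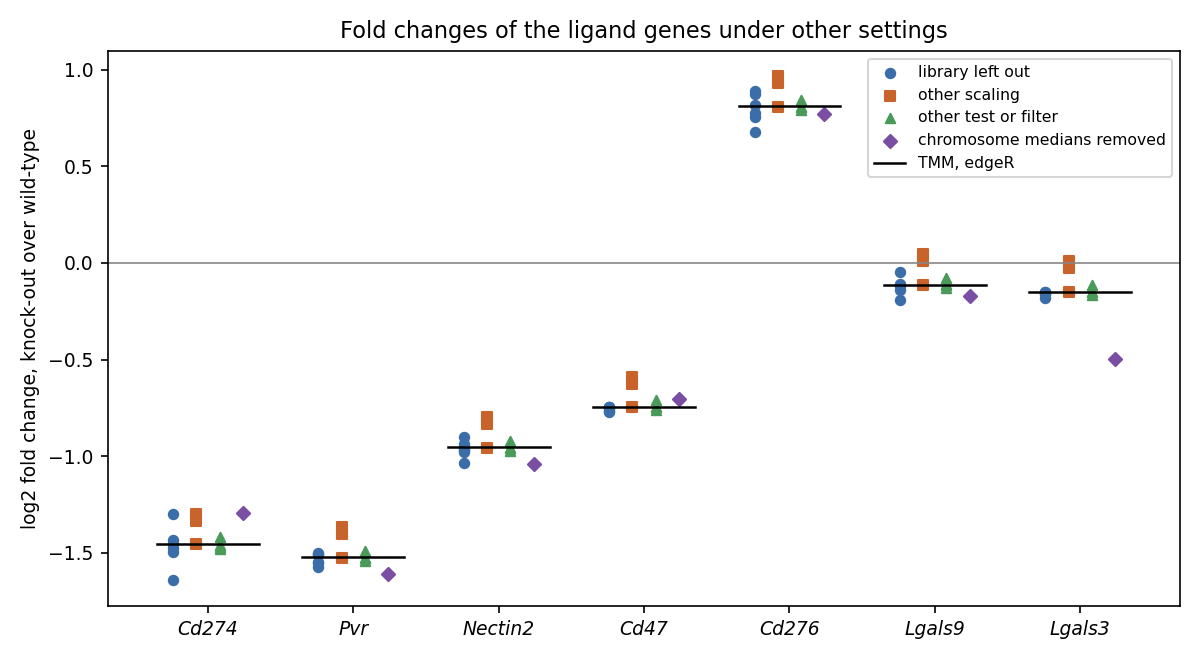
Log2 fold changes of the 7 ligand genes (vertical axis) under other scalings, tests, filters and with libraries left out or chromosome medians removed (symbols), beside the value with TMM scaling in edgeR (black lines). Values for Cd274, Pvr, Nectin2, Cd47 and Cd276 keep their sign, while those of Lgals9 and Lgals3 reach 0 with other scalings.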

How the data were processed

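RNA-seq of polyA RNA was used from 3 wild-type and 3 Mll3 knock-out libraries of CT26 cells; the CUT&Tag and single-cell samples were not analysed here. The authors deposited raw counts per Ensembl gene in 1 table, each gene above 0 in at least 3 libraries. Per the submitters' processing notes, the tools were fastp, STAR, HTSeq, Bowtie2, deepTools and SEACR on build mm10, listed without roles or versions; for annotation and strand setting, the sources used here give nothing. Per the labels' protocols, libraries were strand-specific. Knock-out columns carry a number that the labels do not explain, so they were used without replicate numbers. Symbols matched 17650 identifiers; positions of 11923 tested genes came from RefSeq GRCm38.p6 by symbol. Genes kept by filterByExpr (minimum count 10, minimum total 15) were scaled with TMM and tested with edgeR 4.0.16 (quasi-likelihood F test, robust, Benjamini-Hochberg over all tested genes, threshold 0.05; R 4.3.3). Standard errors come from the F statistic. Levels are not compared between genes, since transcript lengths were not used here. Alternatives were other scalings and filters, DESeq2 1.42.0, voom (limma 3.58.1), glmTreat against 1.5-fold, a threshold of 0.01, each library left out and chromosome medians removed; genes without a position took the median of all tested genes. Named genes are the 7 measured ligands, 13 further genes fixed by name where measured, and the 2 genes of each list with the smallest p; others were named after their values were seen, and 1 gene that the rule names is not reported here. The ligands and lists were chosen with earlier results of these data known. The script was tested on simulated data.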

Additional observations from a re-analysis of the deposited data

How the results depend on the processing

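The log2 fold changes of Cd274, Pvr, Nectin2, Cd47 and Cd276 kept their direction and their call under all 16 alternatives, with ranges of -1.64 to -1.30, -1.61 to -1.37, -1.04 to -0.80, -0.77 to -0.59 and 0.68 to 0.97. Lgals9 was at 0.046 with the upper quartile and 0.010 with library size as the scaling, Lgals3 at 0.0081 and Lgals1 at 0.019 with the upper quartile, and Lrp1 at -0.14 with chromosome medians removed; by construction these settings shift all genes, or all genes of a chromosome, by 1 value. Plgrkt, which was not called, ran from -0.062 to 0.12 with single libraries left out. When glmTreat asked for more than 1.5-fold, 2602 genes passed, of which 1448 were higher and 1154 lower; of the ligand genes it called 4 lower and 1 higher. No paired analysis was possible because the knock-out columns carry no replicate number that the labels identify. Counting limits Cd274 most among the ligand genes, with 44 to 74 counts per knock-out library.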
